A study of Homo sapiens with 6 samples.

Results

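The genes described here code for the collagens, the laminin chains and the enzymes that hydroxylate and crosslink them. They were chosen by symbol among the protein-coding genes to which the deposited transcripts could be matched: 44 collagen alpha chains, 12 laminin chains, 5 lysyl oxidases (LOX, LOXL1 to LOXL4), 3 lysyl hydroxylases (PLOD1 to PLOD3) and 3 alpha subunits of prolyl 4-hydroxylase (P4HA1 to P4HA3), 67 of 33791 genes in all. RNA was measured by sequencing in 6 libraries of HepG2, an established human liver cancer line with many hepatocyte traits. In 3 libraries the cells had been given 20 µM atractylon, a sesquiterpenoid of Atractylodes rhizomes, and in 3 they had not. All cells grew in DMEM with fetal bovine serum, and the labels name no vehicle and no length of treatment. The series asks how atractylon bears on invasion and migration. Nothing in the labels says that the libraries came from separate cultures, so the tests see only how much these libraries vary, and that variation could be technical.

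Collagens are built from 3 alpha chains wound into a triple helix, and laminins from an alpha, a beta and a gamma chain joined in a coiled coil. Before a collagen is secreted, prolyl 4-hydroxylases modify its prolines, which makes the helix stable at body temperature, and lysyl hydroxylases modify its lysines, which prepares sites for sugars and crosslinks. Outside the cell, lysyl oxidases turn lysines into aldehydes that join collagen and elastin molecules. In liver, stellate cells and fibroblasts are the main source of fibrillar collagen in scarring, and hepatocytes rest on a sparse matrix without a full basement membrane.

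HepG2 expressed part of this repertoire. Of the 67 genes, 24 reached an FPKM (fragments per kilobase of transcript and per 1e6 fragments) of 0.5 in 3 or more libraries and were tested, 26 had some counts but stayed below that level, and 17 were listed at 0 counts in all 6 libraries. The tested genes were 10 collagens, 7 laminin chains, LOX and LOXL4, all 3 lysyl hydroxylases, and P4HA1 and P4HA2. Over all 33791 matched genes, of every type, 12302 passed the same filter, a share close to that of these 67. A gene at 0 can still have had up to 3 counts over the 6 libraries, 0.0733 CPM (counts scaled to the effective library size), which covers counting error only. All 67 genes together took 0.369% of gene counts, and the 6 with the most counts held 74.5% of that share. Transcripts that could not be matched to a gene were not analysed here, so a gene's value in a library can lack reads assigned to such a transcript.

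**Figure D1:**
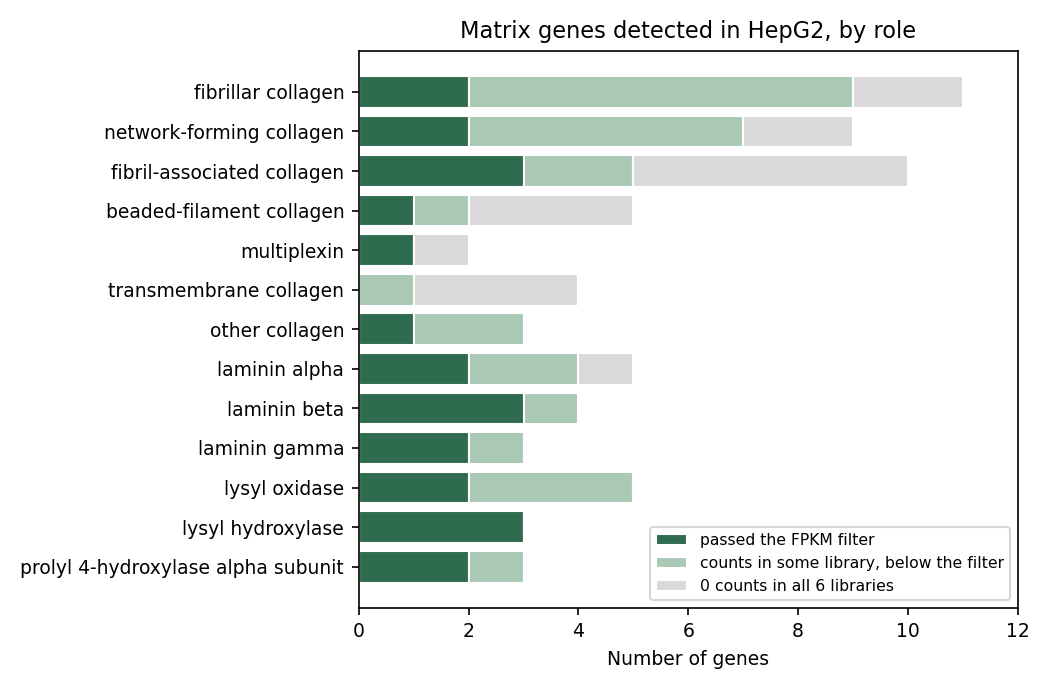
Bars give the number of genes per role (x axis, genes) that passed the FPKM filter (dark), had counts in some library but stayed below it (pale green), or were at 0 counts in all 6 libraries (grey). All 3 lysyl hydroxylases passed, and no transmembrane collagen did.

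The chains of the main scar collagens were at or near 0. COL1A1, the alpha 1 chain of type I collagen, had 9 counts over the 6 libraries, and its partner COL1A2 had 0. COL3A1, the chain of type III collagen, had 0 as well. COL5A2 had 66.0 counts, the most among the 7 fibrillar chains with counts below the filter, and COL5A1, COL5A3, COL11A1 and COL24A1 had 1 each. Markers of fibroblasts and stellate cells were as sparse: DCN, LUM, THY1, POSTN and FAP were at 0, and 2 of the 10 listed genes passed the filter, ACTA2 (54.8 ± 14.4 and 63.6 ± 4.25 CPM with and without atractylon) and PDGFRB (17.5 ± 3.12 and 15.2 ± 0.70). All 10 hepatocyte markers passed, among them SERPINA1 at 6513 ± 468 CPM with atractylon and 6407 ± 56.9 CPM without (SD, n = 3 each), so the hepatocyte traits of the line were present. Endothelial markers KDR, TEK, CLDN5 and EMCN were at 0 (3 of 8 tested), as was HBB, while PTPRC had 1.5 counts (5 of 8 blood cell markers tested, with LYZ, a secreted lysozyme, between 715 and 897 CPM).

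Other collagens below the filter were the beaded-filament chain COL6A2 with 21.0 counts, COL8A1 and COL8A2 with 55.0 and 28.0, the transmembrane COL17A1 with 3, and COL28A1 with 7.15. Those with at most 1 count were COL11A2, COL12A1, COL14A1 and, described next, COL4A1. COL6A3, COL6A5, COL6A6, COL9A1, COL10A1, COL13A1, COL15A1, COL19A1, COL20A1, COL21A1, COL22A1, COL23A1 and COL25A1 were at 0 in every library. COL6A1, the only tested chain of type VI collagen, thus stood with little COL6A2 and no COL6A3.

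Type IV collagen, the network former of basement membranes, was represented by its alpha 5 and alpha 6 chains. The 6 type IV genes lie head to head in pairs and share the stretch between their starts. COL4A1 and COL4A2, the pair found in nearly all basement membranes, had 1 and 12 counts in the 6 libraries together, and COL4A3 and COL4A4 had 12 and 0. COL4A5 had 40.9, 26.7 and 30.1 CPM with atractylon and 34.1, 34.4 and 40.9 CPM without. COL4A6 had 15.5, 16.1 and 12.6 CPM with atractylon and 15.0, 14.3 and 15.8 CPM without. Both tested chains overlapped between groups, and per kilobase of transcript COL4A5 lay above COL4A6 in every library (4.30 to 6.58 against 1.98 to 2.53 CPM per kb).

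The stretch between the starts of the near-silent pair and the one before the expressed COL4A5 are set side by side here because the levels of their genes differ. COL4A1 and COL4A2 start 126 bases apart at chr13:110307158-110307283 (plus strand shown, 80.2% GC), and the 250 bases before the COL4A5 start lie at chrX:108439588-108439837 (plus strand, 51.2% GC). Sequences are RefSeq's on GRCh38.p14, and the capitals mark the letters CCAAT, and GGGCGG, called the GC box, on either strand.
COL4A1-COL4A2: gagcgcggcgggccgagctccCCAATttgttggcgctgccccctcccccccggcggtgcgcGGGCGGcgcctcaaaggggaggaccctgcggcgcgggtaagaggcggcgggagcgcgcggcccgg
COL4A5: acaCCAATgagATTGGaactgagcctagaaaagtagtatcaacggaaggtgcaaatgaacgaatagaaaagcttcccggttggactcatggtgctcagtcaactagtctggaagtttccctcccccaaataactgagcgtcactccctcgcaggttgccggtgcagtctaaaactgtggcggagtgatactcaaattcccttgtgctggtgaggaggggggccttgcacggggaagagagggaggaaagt

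The stretch of COL4A1 and COL4A2 holds 1 CCAAT and 1 GC box, and the bases shown before COL4A5 hold 2 CCAAT and no GC box. CCAAT is found in 32.0% of 35116 windows of 250 bases before RefSeq starts and in 21.1% of windows of 126 bases, and the GC box in 42.6% and 34.6%, so neither motif marks a rare promoter. The first start of COL4A6 lies 379 bases from that of COL4A5, so the 250 bases shown are only part of the stretch between them. The motif counts of the pairs thus come from unlike windows. The number of CpG sites in windows of 300 bases around the start also overlapped between detected and undetected genes. Its median was 22.0 for the tested genes (20 of 24 with a window), 22.5 for those below the filter (18 of 26) and 19.0 for those at 0 (12 of 17), against 16.0 over 27305 genes. These counts describe the letters in the windows and say nothing of what binds there.

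Laminin transcripts were led by the chains of the alpha 5 laminins. Per kilobase of transcript, LAMB2 (beta 2, 120 CPM per kb) stood first, ahead of LAMA5 (alpha 5, 60.8), LAMC1 (gamma 1, 44.0) and LAMB1 (beta 1, 19.5). By mean FPKM summed per gene, LAMB2 (436) was still first, but LAMC1 (84.5) stood above LAMA5 (70.3). The ranges over the 6 libraries of LAMA5 and LAMC1 overlapped (45.2 to 75.3 and 36.4 to 57.2 CPM per kb), while LAMB2 (101 to 137) lay above both and LAMB1 (15.1 to 25.6) below. LAMA3, LAMC3 and LAMB3 followed at 1.55, 0.930 and 0.548 CPM per kb. LAMA1 (92.0 counts in all), LAMB4 (7.23) and LAMA2 (2) were not tested, and LAMA4, the alpha chain of vessel walls, was at 0.

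LAMA5 had 698, 702 and 688 CPM in atractylon replicates 1 to 3 and 507, 652 and 845 CPM in control replicates 1 to 3. LAMB2 had 613, 673 and 639 CPM with atractylon and 526, 605 and 718 CPM without. LAMC1 had 366, 271 and 299 CPM with atractylon and 268, 323 and 421 CPM without. For all 3 chains the treated libraries lay inside the range of the controls, whose replicate 1 was lowest and replicate 3 highest. The log2 fold changes (atractylon minus control) were 0.06 ± 0.16 for LAMA5, 0.06 ± 0.12 for LAMB2 and -0.11 ± 0.17 for LAMC1 (± SE). Their 95% intervals ran from -0.29 to 0.41, from -0.21 to 0.33 and from -0.48 to 0.25. LAMB1 was at 0.00 ± 0.20, LAMA3 at -0.16 ± 0.27, LAMC3 at 0.02 ± 0.30 and LAMB3 at -0.19 ± 0.43. The ratio of LAMB2 to LAMB1 CPM was 6.53 ± 1.95 with atractylon and 5.99 ± 0.335 without (SD, n = 3 each), and the groups overlapped.

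**Figure D2:**
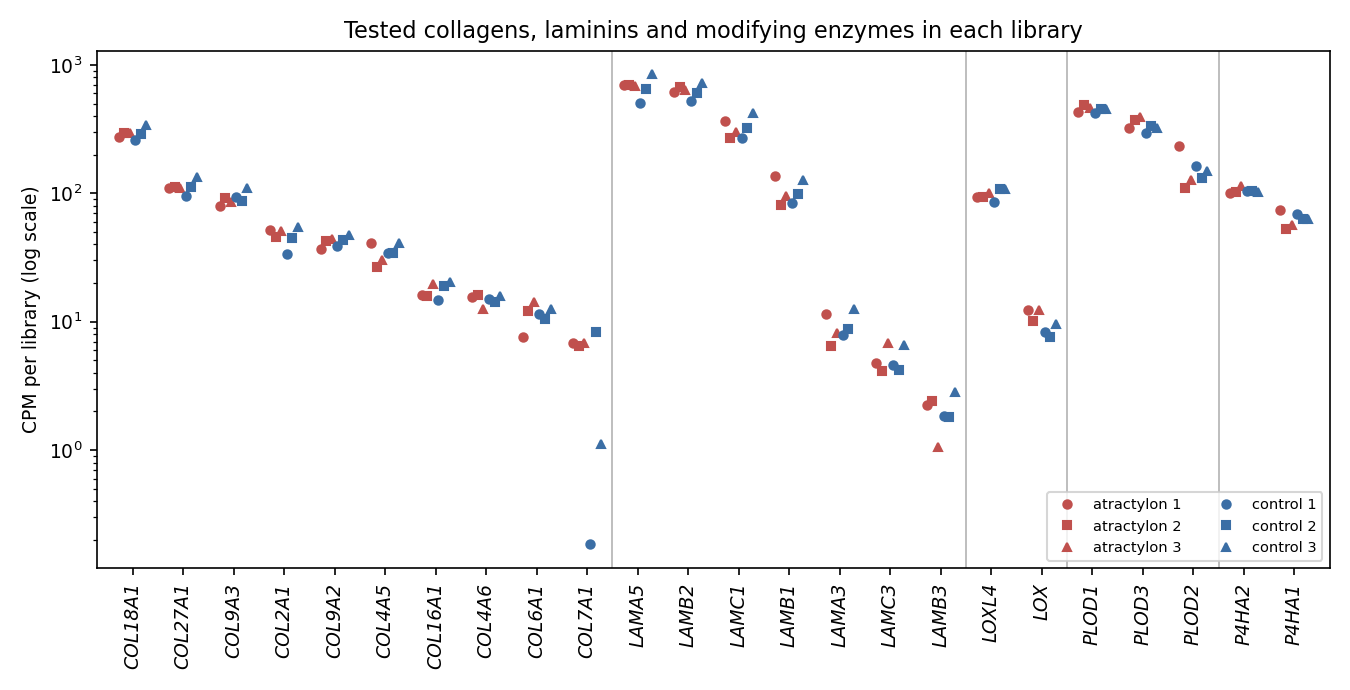
Each point is 1 library (red, atractylon; blue, control; the symbol gives the replicate), with CPM on a log axis for the 24 tested genes, grouped as collagens, laminins, lysyl oxidases, lysyl hydroxylases and prolyl 4-hydroxylases. LAMA5 and LAMB2 are the highest, LOX is the only gene whose groups are apart, and COL7A1 is low in control replicates 1 and 3 (0.184 and 1.11 CPM).

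Among the collagens, COL18A1 (ENSG00000182871, chromosome 21) was the most abundant per kilobase (55.9 CPM per kb, at most 65.1 in a library). It codes for a basement membrane collagen whose C-terminal fragment is endostatin. COL9A3 (38.3, range 33.7 to 45.6) and COL27A1 (17.8, range 15.0 to 21.1) came next, and their ranges do not touch those of COL18A1 or each other. COL9A2 (15.0, 13.2 to 16.7) overlapped with COL27A1. By FPKM, COL9A3 (35.2 to 52.2) did touch COL18A1 (51.5 to 64.9), and COL9A2 (14.7 to 18.8) lay below COL27A1 (20.4 to 26.7). COL2A1 stood at 9.86, COL4A5 at 5.55, COL16A1 at 3.31, COL6A1 at 3.28, COL4A6 at 2.35 and COL7A1 at 0.566 CPM per kb. COL2A1, COL9A2, COL9A3 and COL27A1 are best known from cartilage, where type IX molecules coat type II fibrils. COL9A1, the alpha 1 chain of that molecule, had 0 counts.

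COL18A1 had 273, 295 and 294 CPM with atractylon and 261, 290 and 341 CPM without. COL9A3 had 80.1, 91.8 and 85.7 CPM with atractylon and 93.4, 87.4 and 109 CPM without. COL27A1 had 109, 112 and 109 CPM with atractylon and 94.5, 112 and 133 CPM without. Treated and control libraries overlapped for all 3, and control replicate 3 was the highest of the 6 each time. The log2 fold changes were -0.05 ± 0.11 for COL18A1 (95% interval -0.30 to 0.20), -0.17 ± 0.12 for COL9A3 (-0.43 to 0.10) and -0.04 ± 0.13 for COL27A1 (-0.32 to 0.24). COL2A1 was at 0.15 ± 0.17, COL9A2 at -0.06 ± 0.14, COL4A5 at -0.16 ± 0.18, COL16A1 at -0.08 ± 0.19, COL6A1 at -0.02 ± 0.25 and COL4A6 at -0.03 ± 0.18. Of the 10 tested collagens, 8 had a negative and 2 a positive value, with a median of -0.05 against 0.01 over all genes tested. Over all genes tested, 5749 values were negative and 6553 positive. The 95% interval of each tested collagen held values of both signs.

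COL7A1, the chain of the anchoring fibrils of skin, had the widest interval. It had 6.88, 6.52 and 6.82 CPM with atractylon and 0.184, 8.29 and 1.11 CPM without, so 2 control values were low and the third was the highest of all. The log2 fold change was 1.06 ± 0.72 (95% interval -0.54 to 2.66). Without control replicate 2 it was 3.19, with an edgeR adjusted p of 0.292. Its main transcript, COL7A1-201, was listed at 0 in both low libraries, and those values may be incomplete: whether reads of the gene were assigned there to a transcript that could not be matched was not tested. Neither fold change can therefore be read as a difference in COL7A1 expression.

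COL26A1 was too low to be tested. It had 0, 0 and 2.61 counts with atractylon and 18.0, 4.51 and 7 without, so each control library lay above each treated one. Control replicate 1 held 18.0 of the 29.5 control counts. No share of genes with groups apart is given here for genes below the filter. COL26A1 is named because its values were seen, and in an edgeR fit with no FPKM filter its log2 fold change was -3.28 ± 0.99 (edgeR adjusted p = 1.00). It was the only gene with an unadjusted p under 0.05 of the 25 that this fit added, beside 1.82% of the 16772 genes in that fit.

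Of the modifying enzymes, 2 lysyl hydroxylases were the most abundant per kilobase. PLOD1 (ENSG00000083444, chromosome 1, 158 CPM per kb) stood first of all 24 genes on this measure, ahead of PLOD3 (121), which also adds sugars to hydroxylysine. By mean FPKM summed per gene, LAMB2 (436) stood above PLOD1 (176) and PLOD3 (152). P4HA2 (47.7) and PLOD2 (45.6) followed, and P4HA1 (22.8) stood below the oxidase LOXL4 (26.8). PLOD1 (148 to 170) did not overlap with PLOD3 (104 to 138), whereas P4HA2 (45.7 to 51.5) lay inside the range of PLOD2 (32.7 to 70.7), the enzyme that modifies the telopeptides of collagen. By FPKM, PLOD1 (168 to 181) lay inside the range of PLOD3 (133 to 185), and the mean of PLOD2 (69.0) was above that of P4HA2 (58.8). P4HA3 had 2 counts, 1 each in atractylon replicates 1 and 2 and none in the other libraries.

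PLOD1 had 431, 487 and 461 CPM with atractylon and 423, 453 and 454 CPM without. PLOD3 had 324, 375 and 390 CPM with atractylon and 294, 332 and 322 CPM without. PLOD2 had 235, 109 and 127 CPM with atractylon and 162, 131 and 148 CPM without. All 3 overlapped between groups, PLOD3 by the lowest treated library alone, and for PLOD2 the treated libraries held both the highest and the lowest values. The log2 fold changes were 0.05 ± 0.10 for PLOD1 (95% interval -0.16 to 0.26), 0.20 ± 0.11 for PLOD3 (-0.04 to 0.43) and 0.10 ± 0.24 for PLOD2 (-0.42 to 0.63). Without atractylon replicate 1, the value of PLOD2 turned to -0.31 (edgeR adjusted p = 0.406). The ratio of PLOD1 to PLOD3 CPM was 1.33, 1.30 and 1.18 with atractylon and 1.44, 1.36 and 1.41 without, so the groups did not overlap, and the ratio was not tested.

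P4HA2 had 100, 103 and 113 CPM with atractylon and 104, 104 and 103 CPM without. P4HA1 had 74.5, 53.0 and 56.8 CPM with atractylon and 68.8, 62.5 and 62.8 CPM without. The control libraries of P4HA2 were almost level, and the treated ones lay on both sides of them for each gene. The log2 fold changes were 0.03 ± 0.10 (95% interval -0.20 to 0.25) and -0.07 ± 0.15 (-0.39 to 0.25). P4HB, the beta subunit that both alpha subunits need and that also serves as a disulfide isomerase, was far above them at 1651 CPM per kb.

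LOX (ENSG00000113083, chromosome 5), which oxidises lysines in collagen and elastin, was the only tested gene whose groups did not overlap. It had 12.4, 10.2 and 12.3 CPM with atractylon and 8.26, 7.53 and 9.52 CPM without. Every treated library was above every control library. The means were 11.6 ± 1.27 and 8.44 ± 1.00 CPM (SD, n = 3 each), and the log2 fold change was 0.46 ± 0.21 (95% interval 0.00 to 0.92). The edgeR adjusted p was 0.9999 over 12302 genes, so LOX did not pass the threshold. Its sign was positive in all 18 alternative settings, from 0.37 to 0.56. These settings reuse libraries whose LOX values were already apart, so the steady sign is not separate support. The unadjusted p in edgeR was 0.0496, and 0.0383 with the GC trend removed. It was 0.0894 in edgeR without atractylon replicate 1, and 0.138 in limma on log2(FPKM + 0.5). In bulk RNA, more LOX per cell and more cells that express it cannot be told apart.

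LOXL4 was the more abundant oxidase, at 26.8 CPM per kb (23.5 to 29.5) against 2.06 for LOX (1.55 to 2.56). It had 93.6, 93.8 and 100 CPM with atractylon and 85.7, 107 and 108 CPM without, and its groups overlapped. The log2 fold change was -0.07 ± 0.12 (95% interval -0.33 to 0.20). The ratio of LOXL4 to LOX was 7.52, 9.22 and 8.17 with atractylon and 10.4, 14.2 and 11.3 without, with no overlap. It was not tested, and it shares its LOX values with the separation of LOX given above. The ratios LAMA5 to LAMC1, COL4A5 to COL4A6, COL9A3 to COL9A2, PLOD1 to PLOD2 and P4HA2 to P4HA1 were computed too and overlapped. No share over all genes was computed for ratios. LOXL2, the third of the family by FPKM, was below the filter, with 4, 4 and 7 counts with atractylon and 5, 10 and 6 without, groups that overlapped. LOXL3 had 36.0 counts in all and LOXL1 14.0.

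**Figure D3:**
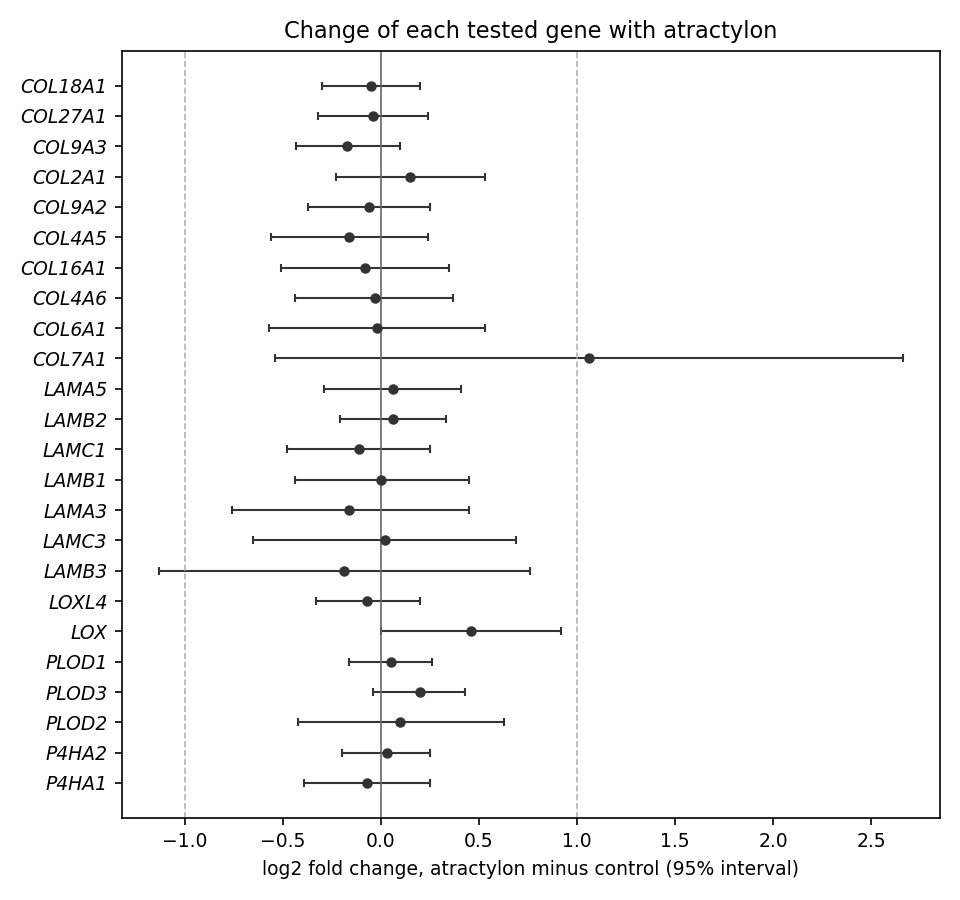
Points give the log2 fold change (atractylon minus control, x axis) of each of the 24 tested genes with its 95% interval from edgeR; dashed lines mark a 2-fold difference either way. The intervals of 22 genes lie within 2-fold, and those of COL7A1 and LAMB3 pass it.

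By the test over all genes, 0 of the 24 genes passed an adjusted p of 0.05 in edgeR's quasi-likelihood test, where 0 of 12302 genes passed (0%). At an unadjusted p under 0.05 there was 1 of 24, LOX, with atractylon higher, beside 1.59% of all genes tested (0.788% higher and 0.805% lower). DESeq2 and limma on log2(FPKM + 0.5) called 0 of the 24 as well, and at an unadjusted p under 0.05 both gave 0 of 24, beside 0.829% and 3.26% of all genes. LOX was also the 1 gene of 24 whose groups did not overlap with atractylon higher, beside 2.71% of all genes, and 0 of 24 were apart with atractylon lower, beside 3.02% (5.72% in either direction). The values were positive for 11 genes and negative for 13, beside 6553 and 5749 of all genes tested. Their median was -0.03 against 0.01 over all genes tested.

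The precision behind these values was close to that of the other genes. The median SE was 0.17 on the log2 scale against 0.20 over all genes. For 22 of the 24 genes the 95% interval stayed inside a 2-fold difference, and for 18 inside a 1.5-fold difference. Smaller differences may be present and missed.

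Transcript estimates gave the forms in which these genes were expressed. Reads shared between transcripts were divided by estimate, so isoform values are less certain than gene values. PLOD2 has an alternative exon of 63 bases that adds 21 codons to the enzyme, and its inclusion is known to vary between tissues. In GENCODE 29 (GRCh38) it is exon 14 of PLOD2-201, at chr3:146077862-146077924 on the minus strand. It is shown in capitals with 20 bases of the neighbouring exon on each side, since the share below counts transcripts with and without it.
PLOD2 exon 14: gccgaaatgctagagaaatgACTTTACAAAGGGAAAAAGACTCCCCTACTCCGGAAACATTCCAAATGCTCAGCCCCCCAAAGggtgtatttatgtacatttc

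Transcripts with the exon made up 28.7, 12.9 and 23.8% of the distinguishing PLOD2 counts with atractylon and 26.0, 24.7 and 31.5% without. Atractylon replicate 2 was low and the other treated libraries lay within or near the controls. The form without the exon, PLOD2-202, held 64.3% of all PLOD2 counts.

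COL2A1 exon 2 separates the early, cysteine-rich form of the chain (type IIA) from the form of mature cartilage (type IIB). The exon of COL2A1-202 lies at chr12:47999919-48000125 on the minus strand (GENCODE 29, GRCh38), is 69 codons long, and the capitals mark its 10 cysteine codons in frame.
COL2A1 exon 2: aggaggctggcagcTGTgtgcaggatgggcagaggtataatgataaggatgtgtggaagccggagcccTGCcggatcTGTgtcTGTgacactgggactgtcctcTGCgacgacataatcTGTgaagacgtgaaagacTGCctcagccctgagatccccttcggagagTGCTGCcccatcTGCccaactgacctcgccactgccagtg

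All distinguishing COL2A1 counts went to the transcript with exon 2 in each of the 6 libraries, between 171 and 412 counts, and the transcript without it, COL2A1-201, was listed at 0. By these estimates the early form was the only one detected. The gene had between 46.0 and 51.8 CPM with atractylon and between 33.8 and 54.5 CPM without, and the groups overlapped.

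COL18A1 has 2 starts 50357 bases apart, of which the second gives longer forms that are known from hepatocytes. The 250 bases before each are shown because nearly all counts went to the first. They lie on the plus strand at chr21:45404915-45405164 (88.4% GC) and chr21:45455272-45455521 (66.4% GC) of RefSeq on GRCh38.p14, and the capitals mark GGGCGG on either strand and TATAAA.
COL18A1 first start: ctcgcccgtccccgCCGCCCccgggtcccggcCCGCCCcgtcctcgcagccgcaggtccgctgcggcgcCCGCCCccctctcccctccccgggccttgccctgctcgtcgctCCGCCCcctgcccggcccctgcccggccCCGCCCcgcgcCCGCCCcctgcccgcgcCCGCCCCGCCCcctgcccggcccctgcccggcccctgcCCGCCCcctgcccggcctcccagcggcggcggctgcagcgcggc
COL18A1 second start: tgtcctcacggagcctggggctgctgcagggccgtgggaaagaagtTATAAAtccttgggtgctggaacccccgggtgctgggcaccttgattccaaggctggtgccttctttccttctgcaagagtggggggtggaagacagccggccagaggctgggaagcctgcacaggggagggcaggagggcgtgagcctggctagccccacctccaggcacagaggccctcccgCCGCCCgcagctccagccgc

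The transcript from the first start, COL18A1-204, took 95.4, 97.1 and 93.7% of the distinguishing counts with atractylon and 95.4, 96.5 and 97.0% without. The groups overlapped. Before the first start stand 9 GC boxes, some sharing letters, and no TATAAA; before the second stand 1 GC box and 1 TATAAA, a motif in 10.7% of 35116 windows. LAMA3, which has a short form from an internal start, was mostly short (78.9 to 95.8% over the libraries, from few counts).

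**Figure D4:**
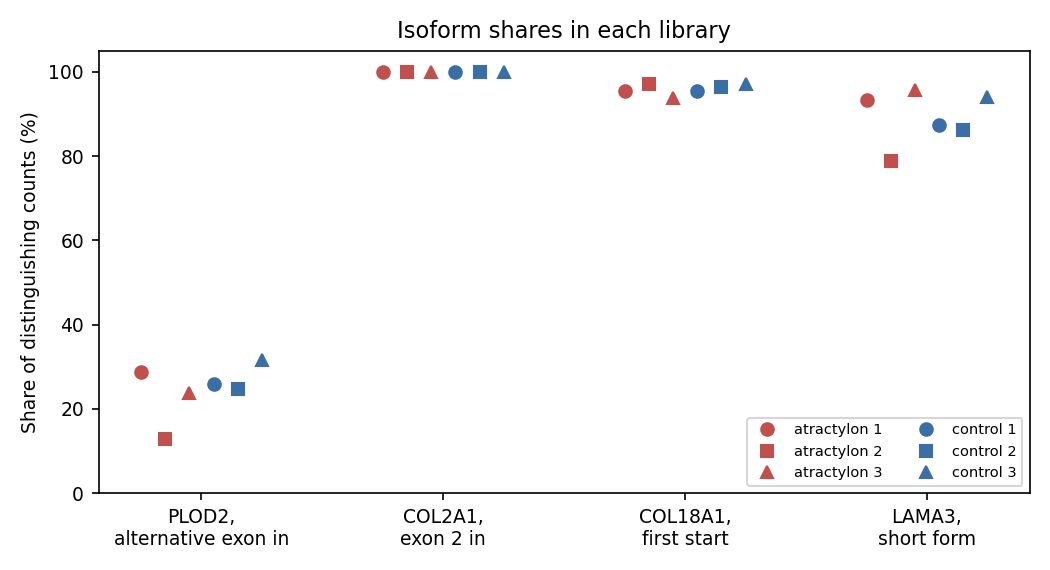
Each point is the share of counts (y axis, %) that went to the named form among transcripts that tell the forms apart, in 1 library (red, atractylon; blue, control). COL2A1 is at 100% throughout, COL18A1 lies between 93.7 and 97.1%, and PLOD2 between 12.9 and 31.5%.

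In the fit over transcripts, 0 of 97 tested transcripts of 23 of these genes passed (edgeR adjusted p, 0 of 39882 transcripts in all, 0%), and 3 had an unadjusted p under 0.05, beside 2.32% of all. They were LAMB1-204, LAMB2-219 and P4HA2-209. LAMB1-204, a protein-coding transcript with 10.8% of LAMB1 counts, had 21.3, 7.81 and 16.7 CPM with atractylon and 4.35, 6.37 and 9.88 CPM without, and the groups overlapped (log2 fold change 1.15 ± 0.46, edgeR adjusted p = 1.00). LAMB2-219, a retained-intron transcript of 594 bases with 0.3% of LAMB2 counts, had 21.6, 16.5 and 31.1 counts with atractylon and was listed at 0 in the 3 controls. It therefore passed the FPKM filter through the treated libraries alone, and no conclusion is drawn from its p. The share of a gene's counts held by its most abundant transcript differed between genes. Among the enzymes, it was 100% for LOXL4-201, 96.2% for PLOD1-201, 95.3% for PLOD3-201 and 93.2% for LOX-201, but 49.9% for P4HA2-203 and 35.5% for P4HA1-203. Among the laminins, it was 97.9% for LAMA5-201, 92.8% for LAMC1-201, 88.7% for LAMC3-202, 88.3% for LAMA3-201, 77.5% for LAMB1-201, 64.8% for LAMB2-201 and 52% for LAMB3-202. Among the collagens, it was highest for COL9A2-202 (96.0%), COL2A1-202 (93.1%) and COL9A3-201 (91.4%). It was 88.1% for COL4A6-201, 87.1% for COL7A1-201, 86.0% for COL18A1-204, 85.8% for COL16A1-203 and 75.2% for COL4A5-202. COL6A1-201 (67.2%) and COL27A1-201 (61.6%) held the lowest shares of the tested collagens.

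The libraries differed within groups in ways that reach these genes. Control replicate 3 was the highest library for 13 of the 24 genes (54.2%, against 14.7% of all genes tested), and control replicate 1 was the lowest for 11 (45.8%, against 18.3%). The share of gene counts that the 67 genes took ran from 0.322% in control replicate 1 to 0.414% in control replicate 3, with the treated libraries between (0.353 to 0.385%). Control replicate 1 also had the fewest counts of the 6 libraries and control replicate 3 the most. The role of depth in this spread was not tested.

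**Figure D5:**
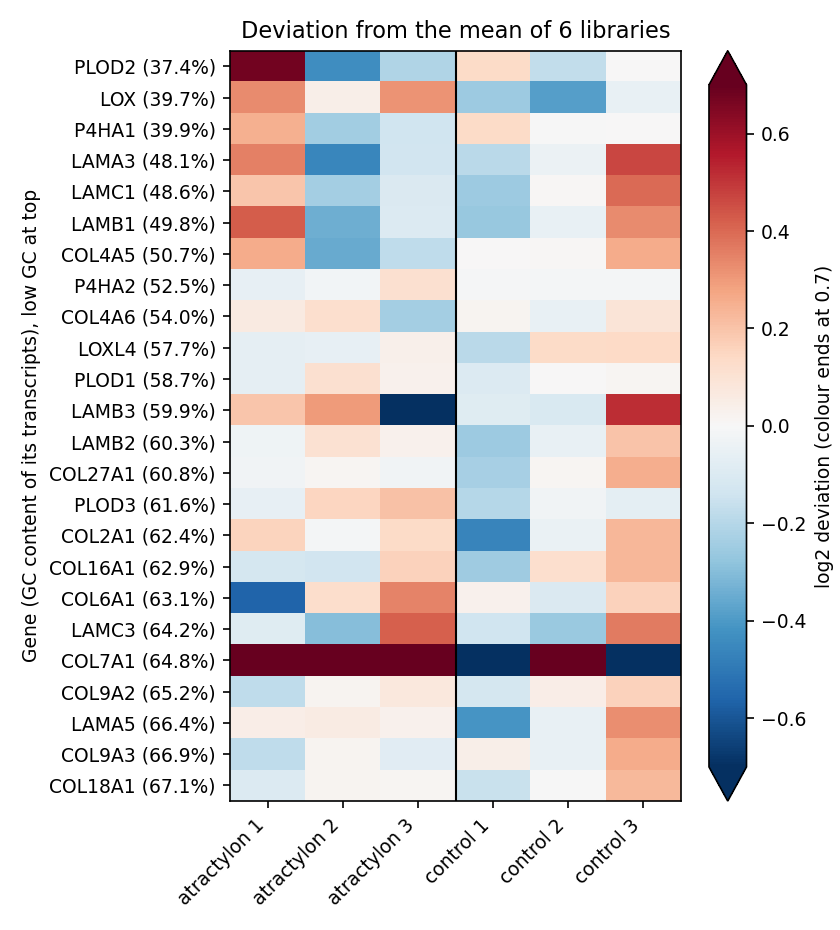
Colours give each gene's log2 deviation from its own mean over the 6 libraries (columns), with genes ordered by the GC content of their transcripts (rows, low GC at the top) and the scale ending at 0.7. The 7 genes under 52% GC are high in atractylon replicate 1 and, except LOX (0.04), low in atractylon replicate 2, and most genes are blue in control replicate 1 and red in control replicate 3.

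The deviations went with GC content in some libraries and with transcript length in some. In atractylon replicate 1 the 7 genes under 52% GC (PLOD2, LOX, P4HA1, LAMA3, LAMC1, LAMB1 and COL4A5) had a median log2 deviation of 0.33 from their own means, against -0.06 for the other 17. In atractylon replicate 2 the medians were -0.34 and 0.02. The Spearman correlation between deviation and GC was -0.66 and 0.47 over the 24 genes in those libraries, and -0.59 and 0.59 over all genes tested, given as a description since genes share the libraries. The tested genes are GC-rich, with a median of 60.1% against 50.1%. With a GC trend removed from each library, the log2 fold change was 0.48 for LOX and 0.05 for PLOD2. In control replicate 1 the correlation with GC was -0.18 over the 24 genes and -0.42 over all genes, and in control replicate 3 it was 0.11 and 0.02. The Spearman correlation with transcript length was 0.39 in atractylon replicate 1, -0.55 in control replicate 1 and 0.42 in control replicate 3 over the 24 genes, and 0.37, -0.10 and 0.29 over all genes. The part of GC content and length in the members' values was not tested beyond the removal of the GC trend.

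Other genes of matrix assembly were read from the same fit. Over 4 lists, 0 of 51 tested genes passed in edgeR, DESeq2 or limma. At an unadjusted p under 0.05 there were 1, 1 and 2, beside 1.59%, 0.829% and 3.26% of all genes tested. The signs given for each list stand beside 6553 positive and 5749 negative values over all genes tested. Of 25 genes for collagen folding and processing, 20 were tested and 0 passed (edgeR), with 14 positive and 6 negative values and a median log2 fold change of 0.07. KLHL12, an adaptor for the ubiquitin ligase that enlarges collagen carriers, had 22.4, 16.8 and 17.9 CPM with atractylon and 16.0, 14.3 and 13.2 CPM without. Its groups did not overlap (log2 fold change 0.40 ± 0.19). It was the only gene of the 20 whose groups were apart, beside 2.71% of all genes with atractylon higher and 3.02% lower. COLGALT1, a collagen galactosyltransferase, and P3H4, a partner in lysine hydroxylation, were both at 0.13 with SE of 0.10 and 0.11.

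Of 15 basement membrane partners, 10 were tested, 0 passed, and the median was 0.03 (8 positive, 2 negative). NID2, PXDN, SMOC2, FREM2 and FBLN2 were at 0 counts. NID1, the linker between laminin and type IV networks, stood at 43.2 CPM per kb, near LAMC1, and the heparan sulfate proteoglycan AGRN at 56.5. By mean FPKM, NID1 (41.2) lay below LAMC1 (84.5). FREM1 was at 0.33 ± 0.23, SPARC at -0.13 ± 0.10 and TINAGL1 at 0.15 ± 0.12 on the log2 scale.

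Of 19 genes of elastic fibres and fibronectin matrix, 11 were tested and 0 passed, with a median of 0.08 (6 positive, 5 negative). Fibronectin (FN1) stood at 1060 CPM per kb, well above any collagen or laminin, while ELN had 17.5 counts and FBN1 55.0. TGM2, a transglutaminase that crosslinks matrix by another route, had between 100 and 111 CPM with atractylon and between 91.8 and 99.3 CPM without, with no overlap (0.15 ± 0.10). EMILIN2 was at 0.28 ± 0.20, also without overlap, and FBLN5 at 0.40 ± 0.38. Groups were thus apart for 2 of these 11 genes, both higher, beside 2.71% of all genes. Among the tested basement membrane partners and receptors it was 0.

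Of 14 collagen and laminin receptors, 10 were tested and 0 passed, with a median of 0.03 (8 positive, 2 negative). DDR1, a collagen-binding receptor kinase, had 76.9, 60.8 and 45.4 CPM with atractylon and 27.2, 38.4 and 53.5 CPM without, so the groups overlapped. Its log2 fold change was 0.61 ± 0.24 (edgeR adjusted p = 0.9999), the 1 gene of the lists with an unadjusted p under 0.05 in edgeR. DDR1 lies in the major histocompatibility region, which has alternative copies in the reference, so its counts are uncertain. ITGA3 was at -0.32 ± 0.31 and BCAM, a receptor for LAMA5, at 0.07 ± 0.12.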

How the data were processed

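The deposited table gave, for each of 180253 transcripts and 6 libraries, an FPKM value and an expected count (an estimated read number that need not be whole), per the file headers. The submitters' processing notes list hg19 and the tools HISAT2 2.0.1, DESeq2 1.6.3, cutadapt 1.9.1 and bcl2fastq 2.17.1.14, without saying what each did. What estimated the counts, on which annotation and whether by strand is not given in the sources used here, so reads of overlapping or antisense genes cannot be told apart. Per the labels' protocols, a low-input SMART-Seq v4 kit was used, which can favour transcripts by GC content and length.

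Transcripts were matched by identifier to GENCODE 29: 153245 (85.0%) belonged to 33791 genes, and the 27008 others, with 8.70 to 9.07% of counts per library, stayed out of library sizes and tests. Totals ran from 5859575 to 8832092 expected counts. Expected counts were summed per gene and rounded, and the 12302 genes that reached an FPKM of 0.5 in 3 or more libraries were tested with edgeR 4.0.16 (R 4.3.3; trimmed-mean scaling, glmQLFit, glmQLFTest, group as the only term, 2-sided, Benjamini-Hochberg over all genes, threshold 0.05). Values are CPM on the effective library size, and CPM per kb uses the count-weighted mean transcript length. Some ranks by CPM per kb differ from those by FPKM summed per gene. The alternatives were DESeq2 1.42.0, limma 3.58.1 on log2(FPKM + pseudocount) with pseudocounts of 0.1, 0.5 and 1, other filters, library sizes, a GC correction, a replicate block and left-out libraries. The fit was checked on simulated data. Replicates differed by more than sampling noise (chi-square per degree of freedom 3.43 to 19.61).

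The members and the lists were chosen with earlier results of these data known. Every tested member is named, with all libraries shown for the 3 of each family with the highest mean FPKM, for an unadjusted p under 0.05 and for groups without overlap. Up to 3 genes with the smallest p are named from each other matrix list, and so is the most abundant transcript of the members described. Other genes, and library values beyond these, were chosen after their values were seen. Not every member is reported here by name.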

Additional observations from a re-analysis of the deposited data

How the results depend on the processing

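Under all 18 alternative settings, 0 of the tested members, 0 of the 51 tested genes of the other matrix lists and, in the settings run on transcripts, 0 member transcripts passed an adjusted p of 0.05. The lowest adjusted p of a member was 0.292 (COL7A1, edgeR without control replicate 2). Over all genes the number of calls ran from 0 to 1 when each library was left out, with the 1 call made without atractylon replicate 1, when 10.7% of genes had an unadjusted p under 0.05. Without replicate 1 of both groups, a setting added with the data known, it was 2. The median log2 fold change of the members lay between -0.10 and 0.08; it was 0.08 without control replicate 3. The median of the laminins was -0.37 without both replicates 1, and that of the lysyl hydroxylases was 0.05 with the GC trend removed, 0.04 with the block as well, and 0.17 without atractylon replicate 2; the cause was not tested. COL4A5, COL7A1, COL9A3, LOX, LOXL4 and PLOD3 kept their sign in every setting, and the other 18 did not. The settings reuse the same libraries, so a kept sign is not separate support for any of them. The values of LOXL4, for example, ran from -0.17 to -0.01. Of 430 values, 29 moved by more than their SE. A filter at an FPKM of 1 left out COL7A1 and LAMB3. The replicate numbers were not taken to pair the samples in the main fit. The correlations of same-numbered libraries were 0.132, 0.176 and 0.011. Libraries 1 and 2 correlated best with their own number, and atractylon replicate 3 did so with control replicate 2. These values cannot decide whether same-numbered libraries belong together. With the replicate block 0 genes and 0 members passed, and 3 members (COL7A1, LOX and PLOD3) had an unadjusted p under 0.05 in edgeR, beside 2.41% of all genes. COL7A1 is in that count although its values may be incomplete, as given above. Depth limits the 26 genes below the filter, which had at most 92.0 counts each over the 6 libraries.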
